A study of Mus musculus with 4 samples.

Results

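The gastrokine and trefoil factor genes encode small proteins that are secreted by the mucous epithelium of the gut, and 6 of them were examined here among the 24391 genes counted in mouse lung tumours: Gkn1, Gkn2, Gkn3, Tff1, Tff2 and Tff3. They were found by gene symbol, and all 6 are listed in every sample. The group was chosen by earlier results from these samples, in which Gkn2 was far higher in the tumours labelled as lacking Mll4, so the difference between the genotypes is given for these genes as a description and is not tested. RNA sequencing was done on 4 samples: 2 K-Ras tumours, from mice with the K-Ras LSL-G12D allele, in which mutant K-Ras stays silent until Cre removes a stop cassette, and 2 K-Ras Mll4-/- tumours, from mice with floxed Mll4 alleles in addition (K-Ras LSL-G12D;Mll4 fl/fl). Both groups therefore carry the activated K-Ras allele and differ by the Mll4 allele. Mll4, now called Kmt2d, is a histone H3 lysine methyltransferase that acts at enhancers. The way Cre was delivered, the age and the sex of the mice are not given in the sources used here, and neither is whether replicates came from separate mice, so p-values measure only the spread between these samples, which may be technical. Every tumour had been digested and depleted of CD45-bearing leukocytes.

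Gastrokines carry a BRICHOS domain, a fold shared with the lung protein surfactant protein C, and are made mainly by the mucous cells that line the stomach. Gkn1 and Gkn2 are products of the surface (pit) cells, and Gkn3 is known in the mouse from mucous neck cells. Gastrokine-2 forms a disulphide-linked dimer with trefoil factor 1. Trefoil factors are built from compact cysteine-rich domains, resist digestion and help to cover and repair mucosal surfaces. Tff1 is paired in the stomach with the surface mucin Muc5ac, Tff2 with the gland mucin Muc6, and Tff3 in the gut with the goblet cell products Muc2 and Fcgbp. Tff2 is also known from the airways.

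The 3 gastrokine genes lie next to each other on chromosome 6 and the 3 trefoil genes next to each other on chromosome 17, where 1 long non-coding gene, Gm15318, overlaps Tff1. All 6 are annotated as protein coding. Because the gastrokine genes sit side by side and were all higher in the same samples, the 250 bases before their annotated starts are shown, taken from RefSeq on GRCm38.p6. The authors' counts were made on mm9, so these positions belong to RefSeq and not to the counts. Each sequence runs 5′ to 3′ on the strand of its gene. The windows are chr6:87350916-87351165 on the minus strand for Gkn1, chr6:87373115-87373364 on the plus strand for Gkn2 and chr6:87388936-87389185 on the minus strand for Gkn3. Capitals mark matches, in either orientation, to 4 kinds of short motif: the TATA box (TATAAA), the CCAAT box (CCAAT), a forkhead word (either TGTTTAC or, with another base inside, TGTTTGC), and a GATA word. The GATA word may read AGATAA, as before Gkn1, or TGATAA, as before Gkn2, and the forms AGATAG and also, lastly, TGATAG were searched as well.
Gkn1: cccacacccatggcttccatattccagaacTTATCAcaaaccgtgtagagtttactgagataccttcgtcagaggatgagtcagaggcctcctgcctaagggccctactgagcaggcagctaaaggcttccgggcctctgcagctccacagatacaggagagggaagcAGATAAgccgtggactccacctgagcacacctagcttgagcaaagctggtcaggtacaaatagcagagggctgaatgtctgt
Gkn2: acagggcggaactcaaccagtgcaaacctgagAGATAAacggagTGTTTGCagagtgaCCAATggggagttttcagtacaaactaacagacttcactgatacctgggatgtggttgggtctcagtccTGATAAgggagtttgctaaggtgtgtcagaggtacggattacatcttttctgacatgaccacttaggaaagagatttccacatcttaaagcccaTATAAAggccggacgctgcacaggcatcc
Gkn3: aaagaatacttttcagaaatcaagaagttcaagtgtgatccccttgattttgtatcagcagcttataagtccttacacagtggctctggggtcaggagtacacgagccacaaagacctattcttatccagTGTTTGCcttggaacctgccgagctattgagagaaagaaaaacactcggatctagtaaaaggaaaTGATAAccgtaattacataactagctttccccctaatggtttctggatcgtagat

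A GATA word was found before all 3 gastrokine genes: at 2 places for Gkn1, 2 for Gkn2 and 1 for Gkn3. Over all 32851 promoter windows of the same length in the RefSeq table, 26.5% held such a word. A forkhead word was found before Gkn2 and Gkn3 (7.29% of all windows). Gkn2, the most abundant of the family in these tumours, was the gastrokine gene whose window held TATAAA, from -29 to -24 relative to the start, and also CCAAT (12.4% and 33.8% of all windows, respectively). No marked words overlapped one another. These are matches of letters only, and binding was not measured.

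**Figure D1:**
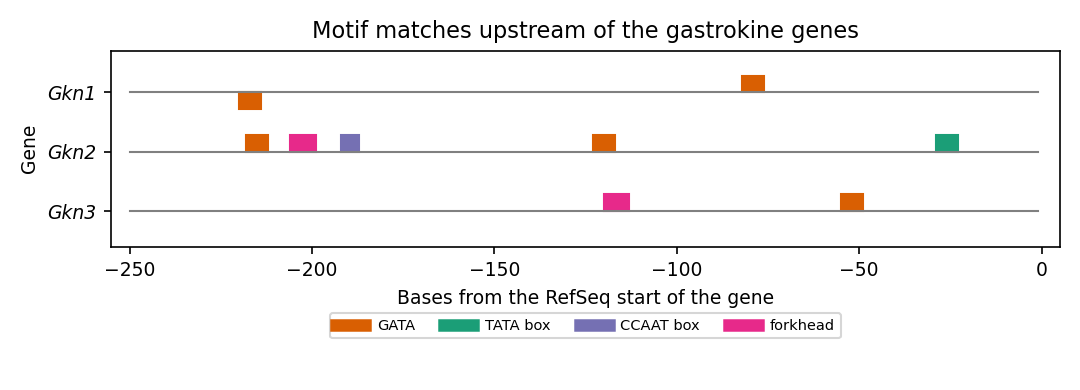
Positions of the motif matches in the 250 bases before the annotated start of each gastrokine gene, with distance from the start in bases on the x axis. Boxes above a line are words as written and boxes below it are reverse complements; GATA words occur in all 3 windows and the TATA box in that of Gkn2.

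Between 26683033 and 36677987 reads per sample were assigned to genes, and a level of 3 reads, taken here as the floor of detection, corresponds to between 0.0830 and 0.114 CPM (reads per 1000000 gene reads, after TMM scaling of the libraries). Intervals given with a level are exact 95% Clopper-Pearson intervals and, like the floor, cover counting error only. A gene is called on in a sample at 1 CPM or more. Alveolar type 2 markers, the identity of the lung cells from which such tumours are thought to grow, summed to between 18607 and 30543 CPM per sample. The targeted gene Kmt2d was at 367 and 317 CPM in the K-Ras Mll4-/- samples and 395 and 526 CPM in the K-Ras samples (log2 difference -0.43, edgeR quasi-likelihood adjusted p = 0.302), so the deletion is taken from the labels. Totals per gene cannot show the loss of part of a transcript. Leukocyte markers (8 of 8 with reads) summed to 5369 and 3319 CPM in K-Ras Mll4-/- and to 5285 and 4574 CPM in K-Ras, so CD45 depletion left such RNA in every sample. Most of each sum came from Lyz2, which alveolar type 2 cells also make. The other 7 markers, summed apart after these values were seen, came to 1066 and 497 CPM in K-Ras Mll4-/- and to 1112 and 364 CPM in K-Ras, replicate 2 being the lower in each genotype. Ptprc, the CD45 gene, was at 269 and 171 CPM against 274 and 143 CPM. Airway secretory markers (8 of 8 with reads) summed to 861 and 701 CPM in K-Ras Mll4-/- and to 825 and 4055 CPM in K-Ras, with K-Ras replicate 2 far above the rest.

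In the K-Ras Mll4-/- tumours, 4 of the 6 genes were on in both samples: Gkn1, Gkn2, Gkn3 and Tff2. In the K-Ras tumours Gkn2 was on in both samples at a far lower level, Tff2 was on in replicate 2 and just under 1 CPM in replicate 1, Gkn3 was detected but not on, and Gkn1 had no read. Tff1 and Tff3 were at or near the floor in all 4 samples. Together the 6 genes took 0.0353% and 0.0427% of the gene reads in the K-Ras Mll4-/- samples, against 4.91e-04% and 6.16e-04% in the K-Ras samples. In bulk tumour RNA, fewer cells that make a transcript and less of it per cell cannot be told apart.

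**Figure D2:**
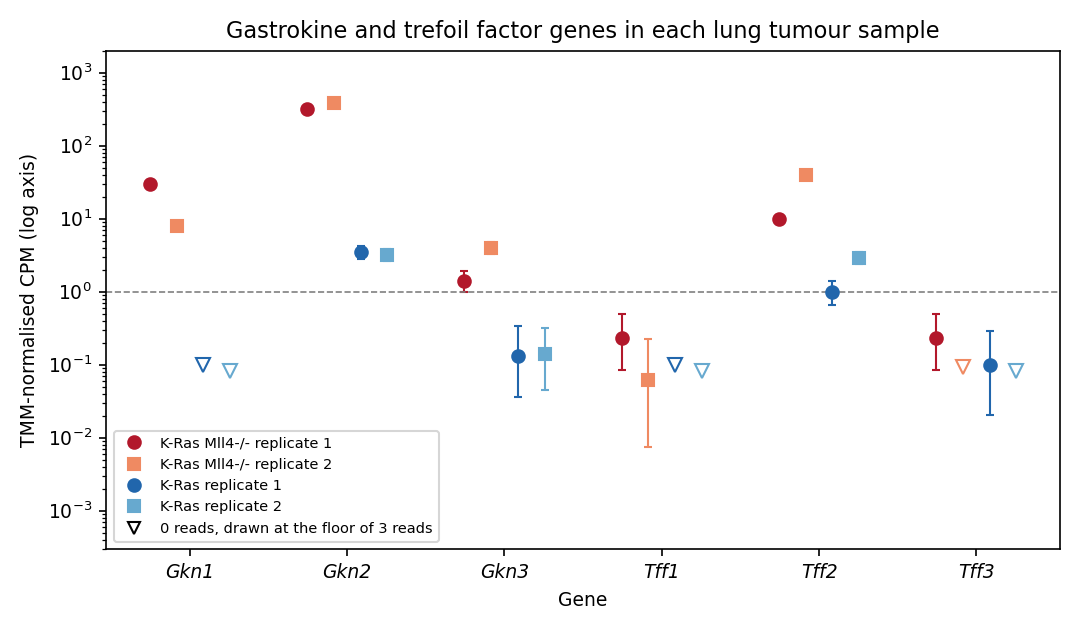
TMM-normalised CPM (log axis) of each gene in each sample, with exact 95% counting intervals; red marks are K-Ras Mll4-/-, blue marks K-Ras, open triangles stand for 0 reads drawn at the 3-read floor, and the dashed line is 1 CPM. Gkn2 stands at 317 and 384 CPM in K-Ras Mll4-/- against 3.47 and 3.18 CPM in K-Ras, while Tff1 and Tff3 lie under 1 CPM throughout.

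Gkn2, the gastrokine-2 gene, had the most reads of the 6 genes in each K-Ras Mll4-/- sample. It had 8317 reads (317 CPM, interval 310.0 to 324) in K-Ras Mll4-/- replicate 1 and 12382 reads (384 CPM, 377 to 391) in replicate 2. In the K-Ras samples it had 106 reads (3.47 CPM, 2.84 to 4.19) in replicate 1 and 115 reads (3.18 CPM, 2.63 to 3.82) in replicate 2. The groups did not overlap, and the replicates lay close together in each. The K-Ras replicates had overlapping counting intervals, so they could not be told apart at this depth, and the K-Ras Mll4-/- replicates differed 1.21-fold. Group means were 350 ± 47.7 and 3.32 ± 0.201 CPM (SD, n = 2 each), a ratio of 105 and a log2 difference of 6.72 (SE 0.21).

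Per kilobase of its longest annotated transcript, 788 bases, Gkn2 reached 402 and 488 CPM per kilobase in the K-Ras Mll4-/- samples. That placed it at rank 86 and rank 60 of the 24017 genes with a known length. In the K-Ras samples, at 4.40 and 4.04 CPM per kilobase, it ranked 9380 and 9860. Gkn2 thus stood above 99.6% and 99.8% of genes in the K-Ras Mll4-/- samples and above 60.9% and 58.9% in the K-Ras samples.

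Gkn1, the gene of gastrokine-1, was the member with no read in either K-Ras sample. Counts of 0 there have exact 95% upper limits of 0.121 CPM in replicate 1 and 0.102 CPM in replicate 2. The floor of 3 reads per library is at 0.0981 and 0.0830 CPM. It had 785 reads (29.9 CPM, 27.8 to 32.1) in K-Ras Mll4-/- replicate 1 and 254 reads (7.88 CPM, 6.94 to 8.91) in replicate 2. Both K-Ras Mll4-/- samples were above the floor, and replicate 1 was 3.79-fold above replicate 2, the opposite order to Gkn2, Gkn3 and Tff2. The mean of 18.9 ± 15.6 CPM (SD, n = 2) was 193-fold the larger K-Ras floor, a lower bound set at the floor and not at the 95% limit. Without K-Ras Mll4-/- replicate 1 that bound was 80.6, and without replicate 2 it was 302.

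Gkn3, the third gastrokine, was rare. It had 37 reads (1.41 CPM, 0.992 to 1.94) and 128 reads (3.97 CPM, 3.31 to 4.72) in K-Ras Mll4-/- replicates 1 and 2. It had 4 reads (0.131 CPM, 0.0356 to 0.335) and 5 reads (0.138 CPM, 0.0449 to 0.323) in K-Ras replicates 1 and 2. The groups did not overlap, and within K-Ras Mll4-/- replicate 2 was 2.82-fold above replicate 1. The log2 difference between groups was 4.28 (SE 0.74), from means of 2.69 ± 1.81 and 0.135 ± 0.00534 CPM (SD, n = 2 each). It was 3.34 without K-Ras Mll4-/- replicate 2.

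Tff2, the gene of trefoil factor 2 or spasmolytic polypeptide, was the trefoil gene with appreciable reads. It had 258 reads (9.83 CPM, 8.66 to 11.1) and 1291 reads (40.1 CPM, 37.9 to 42.3) in K-Ras Mll4-/- replicates 1 and 2. In K-Ras it had 30 reads (0.981 CPM, 0.662 to 1.401) in replicate 1 and 106 reads (2.93 CPM, 2.40 to 3.55) in replicate 2. Both K-Ras Mll4-/- samples were above both K-Ras samples, and in each genotype replicate 2 was the higher, 4.08-fold in K-Ras Mll4-/- and 2.99-fold in K-Ras. Means were 24.9 ± 21.4 and 1.96 ± 1.38 CPM (SD, n = 2 each), with a log2 difference of 3.66 (SE 0.92). Leaving out K-Ras Mll4-/- replicate 2 gave 2.32, and leaving out K-Ras Mll4-/- replicate 1, K-Ras replicate 1 or K-Ras replicate 2 gave 4.35, 3.09 or 4.65. Beside the K-Ras values, the airway secretory protein Scgb1a1 was 5.20-fold higher in replicate 2 than in replicate 1, and its part in the Tff2 level was not tested. Within K-Ras Mll4-/- the order was the other way, since Scgb1a1 in replicate 2 was 0.776 times its level in replicate 1 while Tff2 was 4.08 times.

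Tff1, whose protein is the known partner of gastrokine-2, was barely detected. It had 6 reads (0.229 CPM, 0.0839 to 0.497) and 2 reads (0.0621 CPM, 0.00752 to 0.224) in K-Ras Mll4-/- replicates 1 and 2 and no read in either K-Ras sample. The 2 reads are under the floor, so no fold is given. Gm15318 overlaps Tff1 but is not listed among the counted genes, and the strand setting of the counting is not stated. Reads counted for Tff1 in the overlap therefore cannot be assigned to it with certainty. Tff3, the intestinal trefoil factor, had 6 and 0 reads in K-Ras Mll4-/- and 3 and 0 reads in K-Ras, and the groups overlapped. In the same K-Ras Mll4-/- samples Gkn2 had 8317 and 12382 reads.

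Of the 6 genes, 4 passed the filter on low counts, Gkn1 and Gkn3 through their K-Ras Mll4-/- counts alone. Across the 16001 genes that passed, 6 genes (0.0375%) were called higher and 0 (0%) lower by the quasi-likelihood test of edgeR, at an adjusted p under 0.05. No call is given for the 4 genes themselves, because this contrast was used to choose them. All 4 had both K-Ras Mll4-/- samples above both K-Ras samples (29.9% of all tested genes), from which nothing is read for the same reason. The choice of the genes set no threshold.

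Within a sample, levels can be set against each other per kilobase of transcript. In K-Ras Mll4-/- replicate 1 the order was Gkn2 at 402, Gkn1 at 23.9, Tff2 at 16.8, Gkn3 at 1.65, Tff3 at 0.464 and Tff1 at 0.325 CPM per kilobase. In K-Ras Mll4-/- replicate 2 it was Gkn2 at 488, Tff2 at 68.6, Gkn1 at 6.30, Gkn3 at 4.64 and Tff1 at 0.0883 CPM per kilobase, with Tff3 at 0. Gkn2 led in both, while Gkn1 and Tff2 changed places, so their order is not settled by these samples. In the K-Ras samples, Gkn2 and Tff2 likewise changed places, at 4.40 and 1.68 CPM per kilobase in replicate 1 and 4.04 and 5.02 in replicate 2. Gkn3 and Tff3 were at most at 0.199 CPM per kilobase in the K-Ras samples.

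Gkn2 made up 90.3% and 86.0% of the summed CPM per kilobase of the 6 genes in the K-Ras Mll4-/- samples. In the K-Ras samples it made up 68.4% and 43.8%, and Tff2 26.1% and 54.5%. The mix was thus mostly Gkn2 in K-Ras Mll4-/- and Gkn2 with Tff2 in K-Ras. The K-Ras shares rest on 143 and 226 reads in all.

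**Figure D3:**
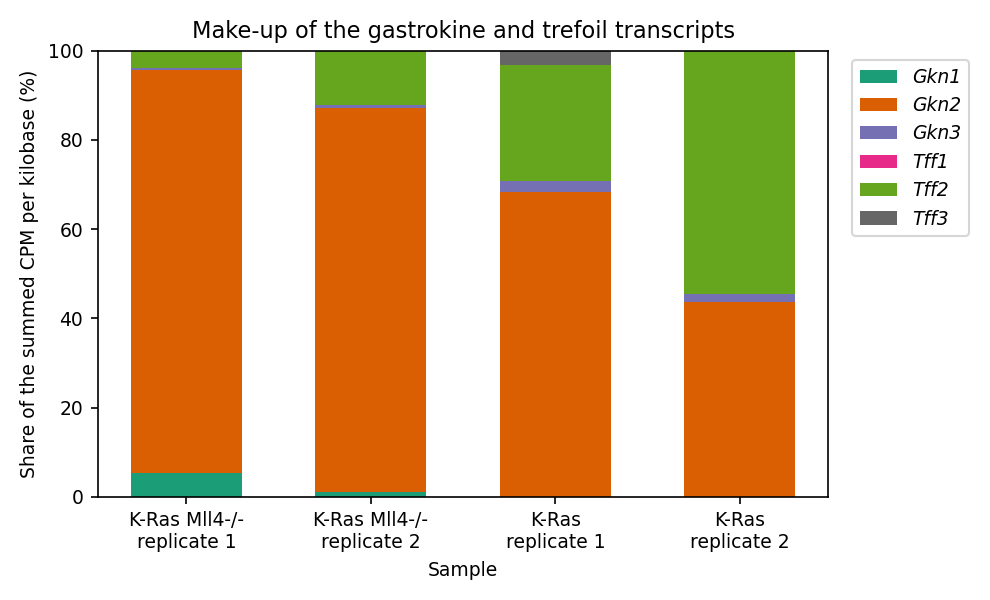
Share of each gene, in percent, in the summed CPM per kilobase of the 6 genes, with 1 bar per sample. Gkn2 fills 90.3% and 86.0% of the K-Ras Mll4-/- bars, and Tff2 fills 26.1% and 54.5% of the K-Ras bars.

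Members of a family can share reads where their transcripts are alike, so this was checked. The longest exact stretch common to the transcripts of any pair was 14 bases, between Tff2 and Tff3, and 11 or fewer between gastrokines. The nearest counted genes beside the clusters were examined as well. Antxr1, an anthrax toxin receptor gene and the nearest counted gene on 1 side of the gastrokines (named after its values were seen, since the nearer genes there are not in the tables), was at 153 and 180 CPM in K-Ras Mll4-/- and 118 and 133 CPM in K-Ras. On the other side, Bmp10, a growth factor gene known from the heart, had 0 or 1 read in every sample. Arhgap25, the next gene, gave overlapping groups (46.7 and 30.7 against 65.01 and 35.2 CPM). Beside the trefoil genes, the cholesterol transporter gene Abcg1 and the T cell regulator gene Ubash3a also overlapped between the groups, with log2 differences of 0.15 (SE 0.51) and 0.19 (SE 0.51). Umodl1 and Tmprss3 had at most 4 reads in any sample. Rsph1, a gene of motile cilia that lies beyond Ubash3a and is named after its values were seen, was at 2.86 and 3.75 CPM in K-Ras Mll4-/- and 5.95 and 28.6 CPM in K-Ras (log2 difference -2.38, SE 0.80, edgeR quasi-likelihood adjusted p = 0.209).

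Mucins and mucus proteins that are known partners of trefoil factors mostly gave overlapping groups. Among the 6 such genes, both K-Ras Mll4-/- samples were higher for 1 (29.9% of all tested genes) and lower for 0 (28.5%). Muc6, the stomach partner of Tff2, was at 3.01 and 1.06 CPM in K-Ras Mll4-/- and 2.00 and 1.99 CPM in K-Ras. Muc5ac, the partner of Tff1, was at 2.44 and 30.7 CPM in K-Ras Mll4-/- and 3.76 and 7.17 CPM in K-Ras, so the groups overlapped. Its 12.6-fold gap within K-Ras Mll4-/- ran in the same direction as the gap of Tff2, and its log2 difference of 1.60 became -1.17 without K-Ras Mll4-/- replicate 2. Muc2, the goblet cell mucin, was at 2.25 and 3.91 CPM in K-Ras Mll4-/- and 0.654 and 1.05 CPM in K-Ras (log2 difference 1.84, SE 0.48, edgeR adjusted p = 0.174). Fcgbp, Muc1 and Muc5b gave overlapping groups. Of these 6 mucin-related genes 0 were called by the edgeR quasi-likelihood test and 1, Muc2, had an unadjusted p under 0.05, as had 21.8% of all tested genes. DESeq2 and the edgeR likelihood ratio test called Muc2 alone among them (10.4% and 9.39% of all genes tested by each).

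Candidate receptors of trefoil factors were present in every sample for Cxcr4, Ackr3 and F2rl1. The chemokine receptor gene Cxcr4 was at 65.9 and 57.9 CPM in K-Ras Mll4-/- and 118 and 65.1 CPM in K-Ras. Ackr3, an atypical chemokine receptor, was at 105 and 79.4 CPM in K-Ras Mll4-/-, below both K-Ras values of 153 and 129.5 CPM, with an edgeR adjusted p of 0.197. F2rl1, the protease-activated receptor PAR2, was at 38.96 and 48.5 CPM against 13.6 and 19.8 CPM (log2 difference 1.39, SE 0.25, edgeR adjusted p = 0.147). Lingo2 and Lingo3, other proposed receptors, were at most at 0.434 CPM. None of the 3 tested receptor genes was called by the edgeR quasi-likelihood test, and F2rl1 was called by DESeq2 and by the edgeR likelihood ratio test (10.4% and 9.39% of all genes tested by each).

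Relatives by domain had smaller log2 differences than the gastrokines, from which nothing is read, because this contrast was used to choose the gastrokines. Sftpc, the surfactant protein C gene and the best known BRICHOS gene of the lung, was at 7740 and 5748 CPM in K-Ras Mll4-/- and 5842 and 10747 CPM in K-Ras. Per kilobase, its K-Ras Mll4-/- mean of 8515 CPM was far above the 445 CPM of Gkn2. Itm2b and Itm2c, further BRICHOS genes, had log2 differences of -0.12 (SE 0.19) and -0.05 (SE 0.16). Itm2a was at 18.9 and 19.5 CPM in K-Ras Mll4-/- and 7.95 and 10.2 CPM in K-Ras, with an edgeR adjusted p of 0.147. Lect1 was at most at 0.186 CPM, and Tnmd and Bricd5 had no read. Of the other genes with a trefoil domain, Gaa, which encodes lysosomal acid glucosidase, had a log2 difference of 0.25 (SE 0.15) and Mgam one of 0.51 (SE 0.61), while Sis had no read and Zp1 at most 0.0621 CPM. The edgeR quasi-likelihood test called none of the 4 tested BRICHOS and 2 tested trefoil-domain relatives, and 1 of them, Itm2a, had an unadjusted p under 0.05 (21.8% of all tested genes). DESeq2 and the edgeR likelihood ratio test called Itm2a alone among them (10.4% and 9.39% of all genes tested by each).

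Markers of gastric surface mucous cells, which make Gkn1, Gkn2 and Tff1 in the stomach, were split. Of 12 such genes 10 were tested. The list was chosen with earlier results of these data known, so its counts beside those of all genes are only a description. Both K-Ras Mll4-/- samples were higher for 5 (29.9% of all tested genes) and lower for 2 (28.5%), and the median log2 difference was 1.402 against -0.01 over all tested genes. That median was 0.57 without K-Ras Mll4-/- replicate 2. Dpcr1, a mucin-like gene, was at 139 and 235 CPM in K-Ras Mll4-/- and 2.06 and 3.18 CPM in K-Ras (edgeR adjusted p = 0.0786). Anxa10, an annexin of the gastric epithelium, was at 44.1 and 96.9 CPM against 0.327 and 1.36 CPM (edgeR adjusted p = 0.128). Ctse, Vsig1 and Cldn18, named after their values were seen, also had both K-Ras Mll4-/- samples above both K-Ras samples, with log2 differences of 4.70, 3.33 and 1.20. Of these, Cldn18 was well expressed in K-Ras too, at 290 and 385 CPM, against 709 and 843 CPM in K-Ras Mll4-/-. Psca went the other way, at 0.0762 and 0.0931 CPM in K-Ras Mll4-/- and 7.72 and 0.470 CPM in K-Ras, as did Capn8 at lower levels. Capn9 and Sult1c2, further surface cell genes, did not pass the filter. None of the 10 was called by the edgeR quasi-likelihood test, 6 had an unadjusted p under 0.05 (21.8% of all tested genes), and DESeq2 called 6 of the 9 it tested, 5 higher and 1 lower (10.4% of all genes it tested).

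Among markers of the other stomach cells, some defining products were at or near 0 and others were well expressed. Pga5, the pepsinogen of chief cells, Slc26a7, an anion exchanger of parietal cells, and Gast, the gastrin gene of endocrine cells, had no read in any sample. The proton pump subunit genes Atp4a and Atp4b of parietal cells were at most at 0.381 and 0.114 CPM. The pepsinogen C gene Pgc was at most at 0.800 CPM. Cym, which encodes the milk-clotting protease chymosin, was at 3.31 and 120 CPM in K-Ras Mll4-/- and had 2 reads in each K-Ras sample. Its K-Ras Mll4-/- samples were ordered like those of Tff2 and against those of Gkn1. Chia1, the acidic chitinase gene of the chief list, which is also known from lung and is named after its values were seen, was at 142 and 88.7 CPM in K-Ras Mll4-/- and 30.5 and 95.1 CPM in K-Ras, and the groups overlapped. Aqp5 of the neck list, a water channel also known from lung epithelium, was at 445 and 411 CPM against 144 and 245 CPM. Hdc of the endocrine list, the histamine-forming enzyme that mast cells also make, was at 34.5 and 28.6 CPM against 35.1 and 109 CPM. Among neck cell genes Aqp5 and Cd44 had log2 differences of 1.14 and 0.67 (SE 0.29 and 0.22). The edgeR quasi-likelihood test called neither, and DESeq2 and the edgeR likelihood ratio test called Aqp5. Those 2 tests also called Cym of the chief list (10.4% and 9.39% of all genes tested by each). The medians over the 3 tested neck, 5 chief, 3 parietal and 3 endocrine genes were 0.67, 0.01, -0.58 and -1.09 on the log2 scale. The neck median is the value of Cd44, and Muc6 of that list was at 0.02. Leaving out 1 sample at a time, the neck median ranged from 0.44 to 0.81, the chief median from -0.25 to 0.32, the parietal median from -1.03 to -0.19 and the endocrine median from -1.57 to -0.17. The last value is without K-Ras replicate 2, where Hdc was at -0.17 and Ghrl at -0.36. Kcne2, Kcnq1 and Slc9a4 of the parietal list had log2 differences of -0.90, -0.58 and 0.41, Hdc, Ghrl and Tph1 of the endocrine list -1.19, -1.09 and -0.36, and Gif and Lipf of the chief list -1.24 and -0.95. Of these, Slc9a4 turned to -0.02 without K-Ras replicate 2, Lipf to 0.77 without K-Ras replicate 1 and Tph1 to 0.56 without K-Ras Mll4-/- replicate 2.

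Intestinal, lung and leukocyte marker lists had medians between -1.37 and 0.25. The goblet cell list had a median log2 difference of -0.35 over 5 tested genes (-0.75 to -0.03 with 1 sample left out), with Spdef at -1.85, Muc2 at 1.84 and Fcgbp at -0.42. Of the enterocyte list 3 genes were tested, and Alpi, the intestinal alkaline phosphatase gene, was at 8.04 and 25.3 CPM in K-Ras Mll4-/- and 0.262 and 0.0553 CPM in K-Ras (edgeR adjusted p = 0.136), whereas Lct and Vil1 had log2 differences of 0.25 and -0.02. The airway secretory list had a median of -1.37, led by Scgb1a1, Scgb3a1 and Bpifa1 at -1.83, -1.66 and -1.47. Without K-Ras replicate 2 that median was -0.17, and the same genes were at -0.21, -0.72 and 0.72. The alveolar type 2 list had a median of -0.22 (-0.43 to 0.13 with 1 sample left out), with Sftpb, Sftpa1 and Napsa at 1.03, -0.37 and -0.33. The leukocyte list had a median of 0.06 (-0.43 to 0.65 with 1 sample left out), with Lyz2, Cd79a and Mrc1 at -0.24, -0.23 and 0.21. No gene of these 5 lists was called by the edgeR quasi-likelihood test. DESeq2 called Muc2 and Alpi higher and Scgb1a1 and Scgb3a1 lower (10.4% of all genes it tested). The edgeR likelihood ratio test called the same genes except Scgb1a1 (9.39% of all genes it tested).

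Among 14 tested transcription factors of stomach and lung, 7 had both K-Ras Mll4-/- samples above both K-Ras samples (29.9% of all tested genes) and 1 below (28.5%). Pdx1, a factor of antral stomach, duodenum and pancreas, had no read in either K-Ras sample and was at 6.25 and 16.1 CPM in K-Ras Mll4-/-. Its mean there was 114-fold the larger K-Ras floor, a lower bound set at the floor. Hnf4a, a factor of gut and liver epithelium, was at 28.9 and 34.0 CPM against 3.99 and 11.5 CPM (log2 difference 2.01, SE 0.54, edgeR adjusted p = 0.177), and Spdef was at 0.533 and 0.124 against 0.916 and 1.41 CPM. The median log2 difference was 0.69, with Pdx1 at its bound too, and ranged from 0.35 without K-Ras replicate 1 to 1.23 without K-Ras replicate 2. Since the gastrokine windows hold GATA words, the GATA genes are given although the last rule did not name them. Gata6 was at 56.5 and 79.8 CPM against 30.4 and 36.6 CPM, Gata5 overlapped between the groups, and Gata4 was at most at 0.131 CPM. The forkhead genes of the list are given as well, since the windows of Gkn2 and Gkn3 hold forkhead words. Foxa2 was at 53.4 and 79.7 CPM against 20.7 and 50.5 CPM. Foxa3 was at 1.56 and 1.09 CPM against 0.458 and 1.08 CPM, and Foxa1 overlapped between the groups. A link between these genes and the words was not tested. None of the tested GATA and forkhead genes was called by the edgeR quasi-likelihood test. DESeq2 and the edgeR likelihood ratio test each called 4 of the 14 factors, all higher: Hnf4a, Gata6, Klf5 and Pdx1. Of all genes tested by each, 10.4% and 9.39% were called. Nkx2-1, the factor of lung identity, was at 47.8 and 64.9 CPM against 45.7 and 62.7 CPM.

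Over all lists, 0 of 77 tested genes were called by the edgeR quasi-likelihood test (0.0375% of all tested genes), while 17 were higher and 5 lower at an unadjusted p under 0.05 (11.4% and 10.4% of all tested genes). DESeq2 called 18 of the 74 it tested (10.4% of all genes it tested), 15 higher and 3 lower (5.23% and 5.18% of all). The likelihood ratio test called 17 (9.39% of all), limma-voom called 0 (0% of all), and the quasi-likelihood test without the filter called 1, Dpcr1, of 97 (0.221% of all). The lists were chosen with earlier results of these data known, so the counts per list, here and above, are only a description.

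**Figure D4:**
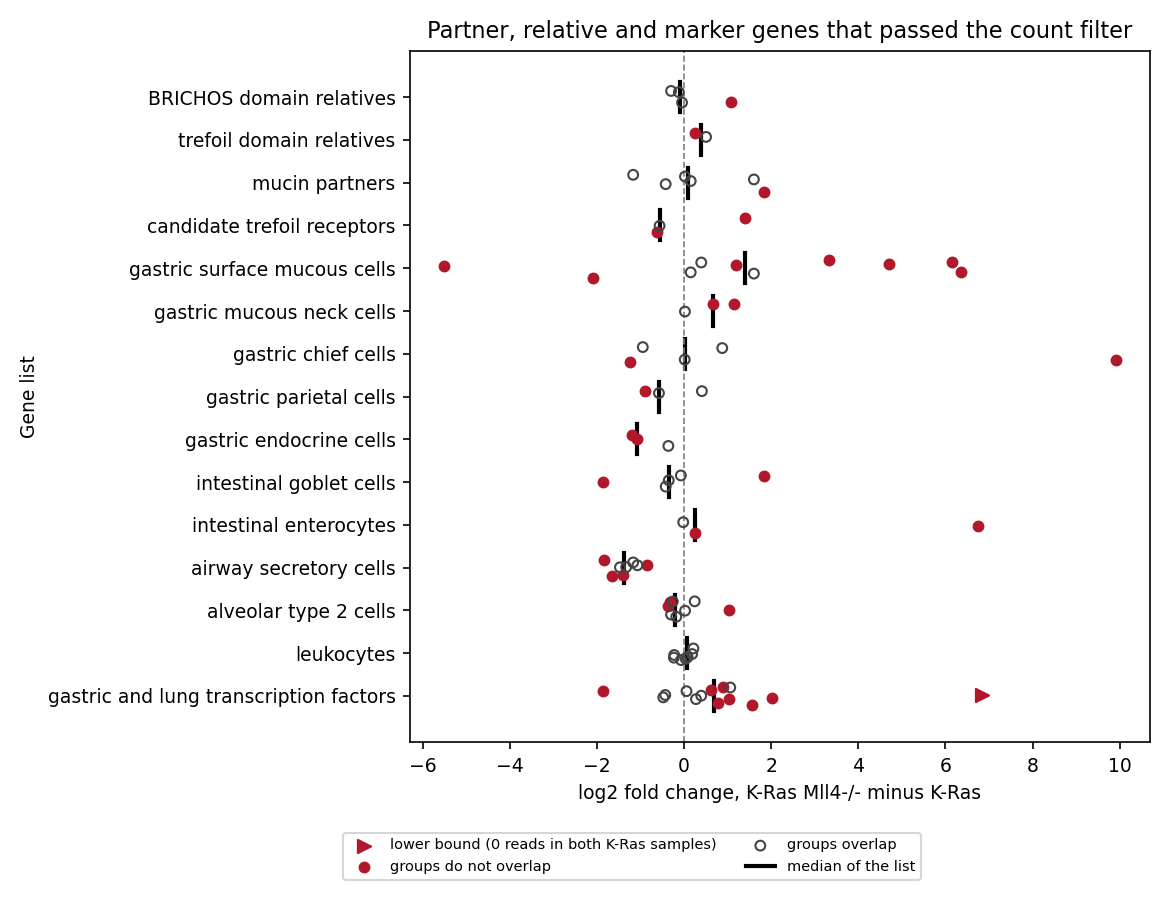
Log2 fold change, K-Ras Mll4-/- minus K-Ras, of every tested gene of the lists; filled points have groups that do not overlap, the triangle is the lower bound of Pdx1, black bars are list medians and the dashed line is the median of all tested genes, -0.01. The surface mucous list runs from -5.52 (Psca) to 6.35 (Anxa10), and the far right point of the chief list is Cym, which rests on 2 reads in each K-Ras sample.

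Genes with the profile most like each member were sought among 15997 other tested genes, by the Euclidean distance of log2 CPM over the 4 samples after centring each gene on its own mean. With 4 samples such likeness is only a description, and where a gene has 0 reads its distance depends on the 0.5 added reads, so none is given there. Gkn1 had no read in either K-Ras sample, so the order of the genes nearest to it depends on the added reads too. For Gkn1 the nearest was Mcpt1, a mast cell protease gene, which was at 1451 and 312 CPM (38096 and 10043 reads) in K-Ras Mll4-/- and had 31 and 33 reads in K-Ras. Tfap2b and the mast cell protease gene Mcpt2 followed. For Gkn2 the nearest were Actbl2, an actin-like gene whose reads may be shared with other actins, Gm5485 and Dpcr1 (distance 0.850). Actbl2 had 47 and 64 reads and Gm5485 29 and 70 reads in K-Ras Mll4-/- and none in K-Ras, so Dpcr1 was the nearest well-covered gene.

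For Gkn3 the nearest were Gm15413 (0.330), Tprg (0.374) and Rab3b (0.423), which encodes a small GTPase of vesicle secretion. For Tff2 they were Trp63 (0.414), the p63 transcription factor of basal and squamous cells, Pak3 (0.466) and Phgr1 (0.602). Trp63 was at 18.5 and 88.6 CPM in K-Ras Mll4-/- and 1.60 and 4.48 CPM in K-Ras. Among the members themselves, Gkn3 and Tff2 lay at 1.23 from each other, and Gkn2 at 2.85 from Gkn3 and 3.61 from Tff2. Each of Gkn2, Gkn3 and Tff2 had genes outside the group nearer to it than these members were. With 15997 genes searched that outcome was all but fixed in advance, so nothing is read from it.

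**Figure D5:**
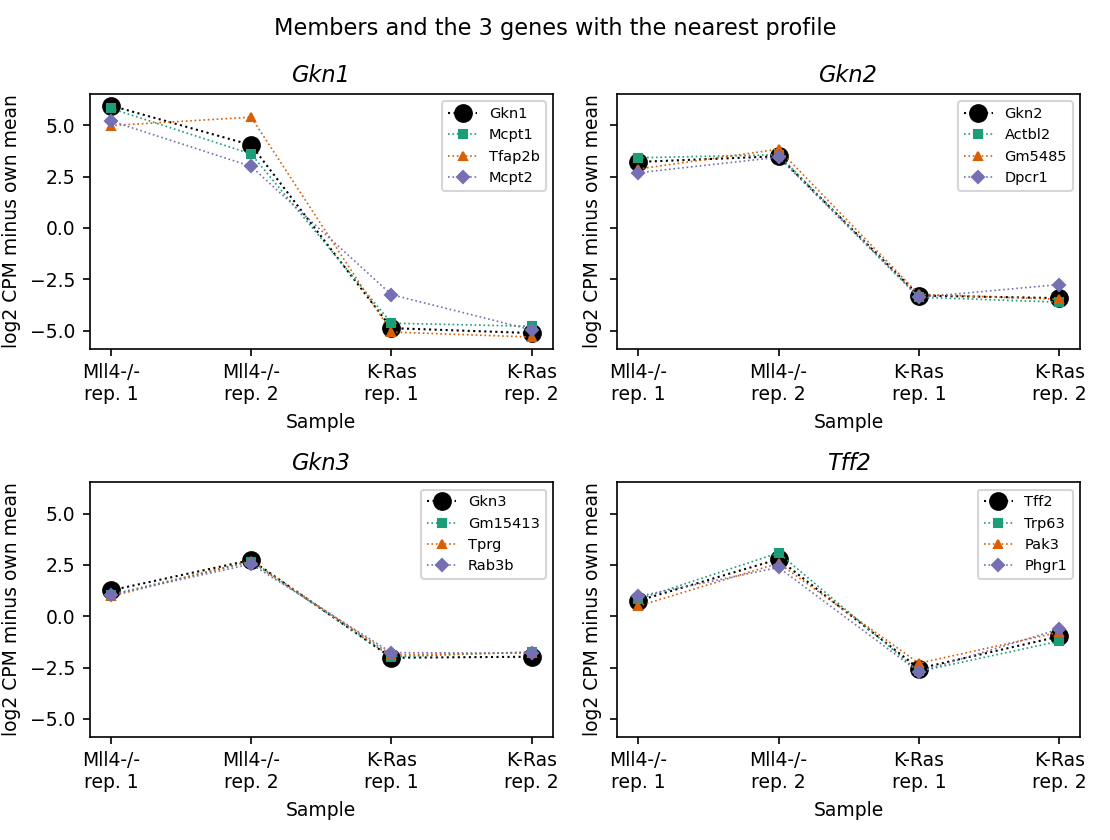
Log2 CPM of each tested member (black) and the 3 genes nearest to it, each minus its own mean over the 4 samples, with 0.5 reads added, which sets the points of genes at 0 reads; the dotted lines only join the points of 1 gene. Gkn1 is highest in K-Ras Mll4-/- replicate 1 with Mcpt1, and Gkn3 and Tff2 are highest in K-Ras Mll4-/- replicate 2.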

How the data were processed

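RNA was sequenced from 4 mouse lung tumour samples, grouped and numbered by their titles. The authors deposited 1 table of raw counts per sample, with reads summed by gene; CASAVA 1.4, STAR, HTSeq and the build mm9 are named in the submitters' processing notes, and the annotation, the strand setting and the other versions are not given in the sources used here. The 5 tallies of reads outside genes (60.1% to 65.6% of reads, multiply aligned ones included) were left out.

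Counts were filtered with filterByExpr, given edgeR's TMM factors (a trimmed mean of M values) and tested with the robust quasi-likelihood test of edgeR 4.0.16 (R 4.3.3, Benjamini-Hochberg adjustment over all 16001 tested genes, called under 0.05). SE is the log2 difference over the square root of F. Log2 CPM for profiles used 0.5 added reads. Lengths are those of the longest GENCODE M21 transcript, matched for 24017 of 24391 genes. RefSeq promoter sequences matched 3 of the 6 members. All lists matched the tables in full.

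The members and the lists were chosen with earlier results of these data known. Named genes were all members, Kmt2d, all partners, relatives and receptors, the nearest neighbours, the 3 nearest profiles per member, and of every other list the called genes or else the 3 largest differences. Alternatives were other scalings and filters, a block for the replicate number, DESeq2 1.42.0, limma-voom (limma 3.58.1), the likelihood ratio test, length scaling and leaving out each sample. The fits were run on simulated counts with the same dispersion for every gene. In these data the spread differs between genes, so that run does not show how the tests behave here.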

Additional observations from a re-analysis of the deposited data

How the results depend on the processing

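The log2 differences of Gkn2, Gkn3 and Tff2 stayed above 0 under every alternative run for them, and Gkn1 was run under other scalings and left-out samples only. Tff1 and Tff3 did not pass the filter and were not run. Under other scalings, filters and tests and with the replicate block, the log2 differences of Gkn2, Gkn3 and Tff2 moved by less than the spread between replicates. Leaving out 1 sample at a time, they ranged from 6.57 to 6.86 for Gkn2, 3.34 to 4.85 for Gkn3 and 2.32 to 4.65 for Tff2, and the lower bound for Gkn1 from 80.6 to 302. Against 6 genes called in all, no filter gave 44, DESeq2 1601, the likelihood ratio test 1503 and limma-voom 0 (3228 at an unadjusted p under 0.05), and leaving out single samples gave 0 to 528, the latter without K-Ras replicate 1. Against 0 list genes called (22 at an unadjusted p under 0.05), the same settings gave 1, 18, 17 and 0, and 0 to 6. The cause was not tested. The deviations of same-numbered samples from their group means had a correlation of 0.20 across genes, and those of differently numbered samples -0.20. With 2 samples per group these values mirror each other, so the sign follows from the numbering. The labels do not say that a number marks a shared source. With the replicate number as a block, 217 genes and 8 list genes were called, and the log2 differences were 6.71 for Gkn2, 4.18 for Gkn3 and 3.57 for Tff2. Without 1 sample, the lone sample of its group is assumed to vary like the other group. Depth limits Tff1, Tff3 and the K-Ras levels of Gkn1 and Gkn3, which rest on 6 reads or fewer.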
